A study of Mus musculus with 47 samples.

Results

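The genes of the myogenic regulatory factors (MRFs), *Myod1*, *Myf5*, *Myf6* and *Myog*, and of the Mef2 family, *Mef2a*, *Mef2c* and *Mef2d*, were 7 of the 45650 genes in the deposited transcript tables. They were matched in the tables by symbol, and the counts of all annotated transcripts of a gene were added up. MRFs are basic helix-loop-helix transcription factors that bind E-boxes in muscle promoters as dimers with E-proteins, and MEF2 proteins bind A/T-rich sites, often close by. In skeletal muscle MyoD1 and Myf5 set the myoblast lineage, myogenin (*Myog*) turns on differentiation, and Myf6 (MRF4) is made late, in myotubes and fibres. MEF2A, MEF2C and MEF2D act with the MRFs on genes of the contractile apparatus, and Id proteins hold the E-proteins away from the MRFs.

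The data were polyA RNA-seq of C2C12, an established mouse myoblast line that fuses into multinucleated myotubes after serum withdrawal. The lines carried a doxycycline (dox)-inducible PiggyBac transgene under the TRE3G promoter, for V5-Halo-tagged MyoD1 beside endogenous MyoD1 (the polyclonal C2C12 iMyoD1 population), for *Cdh23* (C2C12 iCdh23) or for *Mcam* (C2C12 iMcam), both genes of cell-surface adhesion proteins. The study asked what added MyoD1, or either adhesion protein, does to myogenic differentiation. C2C12 iMyoD1 cells were sequenced in growth medium (0 h of differentiation) after 24 h of dox or vehicle, and after 24, 48 and 120 h of differentiation with or without dox from the time of serum withdrawal, which made 8 groups of 3 libraries. At 120 h such cultures were also passed over a filter with pores of 40 µm, which let a myoblast-enriched fraction through and held back a myotube-enriched fraction, each with and without dox (3 libraries a group, but 2 for the +dox myoblast-enriched fraction). C2C12 iCdh23 and C2C12 iMcam cells were sequenced after 48 h of differentiation with and without dox, in 4 groups of 3 libraries. That made 47 libraries in 16 groups. The labels call the replicates biological but do not say how the cultures were split. No line without a transgene was sequenced with dox, so effects of dox itself and of the transgenes cannot be told apart.

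The estimated counts of a library summed to between 15066362 and 50950707, with a median of 22837955. Levels are given as CPM (counts scaled to a common library total) after TMM scaling over all 47 libraries. A gene was called changed when its edgeR adjusted p, over all genes tested in that comparison, was under 0.05, and log2 fold changes are from the same fits, with their standard error (SE). The 12 libraries of 0 and 24 h formed a deposited table of their own, and their labels name no batch, while the labels of the other 35 libraries name the batch RNAseq_v2. Differences between 24 and 48 h therefore cannot be told apart from a difference between batches. Every comparison of +dox with no dox lies within 1 table.

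The induced genes were read first, as a check of the labels. Total *Myod1* in C2C12 iMyoD1 cells was 185, 174 and 184 CPM without dox and 202, 181 and 193 CPM with dox at 0 h, and 142, 139.9 and 136 CPM and 123, 118 and 109.6 CPM at 24 h. It was 391, 389 and 384 CPM without dox and 294, 319 and 300.0 CPM with dox at 48 h, and 302, 299.9 and 228 CPM and 80.9, 96.7 and 94.4 CPM in whole cultures at 120 h. Reads of the MyoD1 transgene cannot be separated from those of endogenous *Myod1* in these tables. Since the total was not called higher with dox at any time, *Myod1* does not check the dox label of this line. Per transcript length, in units explained below, *Myod1* was higher with dox at 0 h without overlap. It was at 175 to 186 units without and 206 to 233 units with dox, so its rise at 0 h depends on the scaling. *Mcam*, the gene of one of the adhesion proteins, was higher in every +dox library of whole C2C12 iMyoD1 cultures than in any no-dox library of the same time. Its means without and with dox were 8.55 and 20.7 CPM at 0 h, 2.62 and 16.9 CPM at 24 h, 12.7 and 23.9 CPM at 48 h and 1.85 and 33.1 CPM at 120 h. The libraries of this line labelled +dox and no dox thus did differ. *Mcam* in C2C12 iMcam cells was 19.5, 17.0 and 17.1 CPM without dox and 69.2, 70.3 and 74.5 CPM with dox (edgeR log2 fold change 2.02, SE 0.0973, adjusted p 0.000124, higher in 3 of 3 +dox libraries). *Cdh23* in C2C12 iCdh23 cells was 369, 343 and 444 CPM without dox and 566, 416 and 464 CPM with dox (edgeR log2 fold change 0.32, SE 0.153, adjusted p 0.102), and the groups overlapped. Without dox it was 5.53, 8.81 and 8.58 CPM in C2C12 iMcam cells, so that *Cdh23* was already high in uninduced C2C12 iCdh23 cells and dox did not raise it detectably. *Cdh23* therefore does not check the dox label of this line, and its dox effects below are not shown to come from induced *Cdh23*. *Mcam* also rose in C2C12 iCdh23 cells, from 7.55, 6.41 and 4.70 to 54.5, 46.0 and 45.7 CPM, and *Cdh23* in C2C12 iMcam cells, to 44.1, 57.3 and 52.2 CPM. Each adhesion gene thus rose with dox in the line that carried the other transgene.

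Marker lists placed the groups along differentiation. The summed level of 8 myotube markers in C2C12 iMyoD1 cells without dox was 1.85 CPM at 0 h, 7.87 CPM at 24 h, 12623 CPM at 48 h and 15483 CPM at 120 h, and with dox 3.66, 8.60, 4873 and 12529.7 CPM. It fell with dox from 6434 to 64.0 CPM in C2C12 iCdh23 cells and from 5728 to 822 CPM in C2C12 iMcam cells, with *Acta1* the most abundant in all 4 of these groups. All 8 myotube markers were called lower with dox at 48 h in C2C12 iMyoD1 and C2C12 iCdh23 cells and 6 of 8 in C2C12 iMcam cells, where 56.6%, 63.8% and 49% of all genes were called in either direction. The 6 myoblast markers, led by *Des*, summed to 984 CPM at 0 h and 3843 CPM at 48 h without dox and fell with dox in C2C12 iCdh23 cells from 3143 to 542 CPM and in C2C12 iMcam cells from 2956 to 1033 CPM. The 6 markers of proliferating cells were highest at 0 h, at 2441 CPM without dox, and fell with dox at 48 h from 1086 to 322 CPM in C2C12 iMyoD1, from 811 to 27.6 CPM in C2C12 iCdh23 and from 695 to 94.8 CPM in C2C12 iMcam cells. In whole cultures at 120 h, by contrast, all 6 were called higher with dox (45.2% of all genes called in either direction), with sums of 233 and 441 CPM. The 5 fibroblast markers summed to between 4.27 CPM at 24 h and 491 CPM in the myoblast-enriched fraction, both without dox, where *Dpt* led the latter. Group sums of 4 adipocyte markers reached at most 0.124 CPM, of 4 endothelial markers 1.13 CPM, of 4 osteoblast markers 3.58 CPM and of 4 leukocyte markers 4.56 CPM. Myoblast, myotube and proliferation markers therefore moved together with the members in several comparisons, and in bulk RNA fewer cells of a type and less RNA per cell cannot be told apart. Their part in the members' changes was not tested.

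The time course without dox shows when each factor came on in C2C12 iMyoD1 cells. From 0 to 24 h, 4 of 5 members tested were called, as were 74.3% of all genes, from 24 to 48 h 6 of 6 (76.8% of all genes) and from 48 to 120 h 6 of 6 (67.1% of all genes). Since most genes were called in each step, the members' counts are near the background, and the sizes of their changes are given instead. *Myog* was at 0, 0.0510 and 0.102 CPM at 0 h, 4.77, 5.19 and 5.21 CPM at 24 h, 1692, 1666 and 1689 CPM at 48 h and 2774, 2209 and 1893 CPM at 120 h. Every library of a later time was above every library of an earlier time. Up to 24 h the rise rested on 3 counts at 0 h against 400 at 24 h, a ratio of 94.1 with a 95% counting interval of 32.0 to 458 (intervals cover counting error only), and from 24 to 48 h it was larger than that of any other member (edgeR log2 fold change 8.43, SE 0.0836, adjusted p 5.26e-16, higher in 3 of 3 libraries). Without replicate 3 of 0 h the fitted log2 fold change of *Myog* from 0 to 24 h was 7.27 instead of 6.43. *Mef2c* came on later: it had no count at 0 h, where 3 counts would be at most 0.182 CPM, 0.166, 0.0368 and 0 CPM at 24 h, 6.76, 9.59 and 6.24 CPM at 48 h and 281, 261 and 282 CPM at 120 h. Its rise from 48 to 120 h (edgeR log2 fold change 5.23, SE 0.160, adjusted p 1.19e-07, higher in 3 of 3 libraries) was the largest of the members in that step. From 24 to 48 h *Mef2c* went from 5 counts to 432, a ratio of 118 with a counting interval of 50.2 to 365, and its fitted log2 fold change of 6.82 became 8.36 without replicate 1 and 6.22 without replicate 3 of 24 h.

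The genes of the lineage factors were already on in growth medium. *Myod1* dipped from 185, 174 and 184 CPM at 0 h to 142, 139.9 and 136 CPM at 24 h, peaked at 391, 389 and 384 CPM at 48 h and was 302, 299.9 and 228 CPM at 120 h. No 2 consecutive times overlapped. *Myf5* rose from 20.7, 17.6 and 18.4 to 36.3, 34.4 and 40.6 CPM over the first 24 h, stood at 26.9, 29.9 and 30.9 CPM at 48 h and fell to 7.68, 7.87 and 5.78 CPM at 120 h (edgeR log2 fold change from 48 h −2.00, SE 0.141, adjusted p 3.86e-06, lower in 3 of 3 libraries). *Myf5* thus peaked a step before *Myod1* and was lowest when *Mef2c* was highest. *Myf6*, the late MRF gene, stayed at or under 0.263 CPM in every library of 0, 24 and 48 h and of both adhesion lines, and had 0.389, 0.671 and 0.423 CPM at 120 h without dox, or 32 counts in 3 libraries against 6 at 48 h (ratio 4.80, counting interval 1.98 to 14.0). *Mef2a* and *Mef2d* were on throughout. *Mef2a* had a mean of 109 CPM at 0 h, 90.6 CPM at 24 h, 389.8 CPM at 48 h and 922 CPM at 120 h, and *Mef2d* of 84.6, 85.8, 211 and 288 CPM. *Mef2a* first fell, with all 3 libraries of 24 h below all 3 of 0 h, and from 24 h on both rose in each step, *Mef2a* by more.

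**Figure D1:**
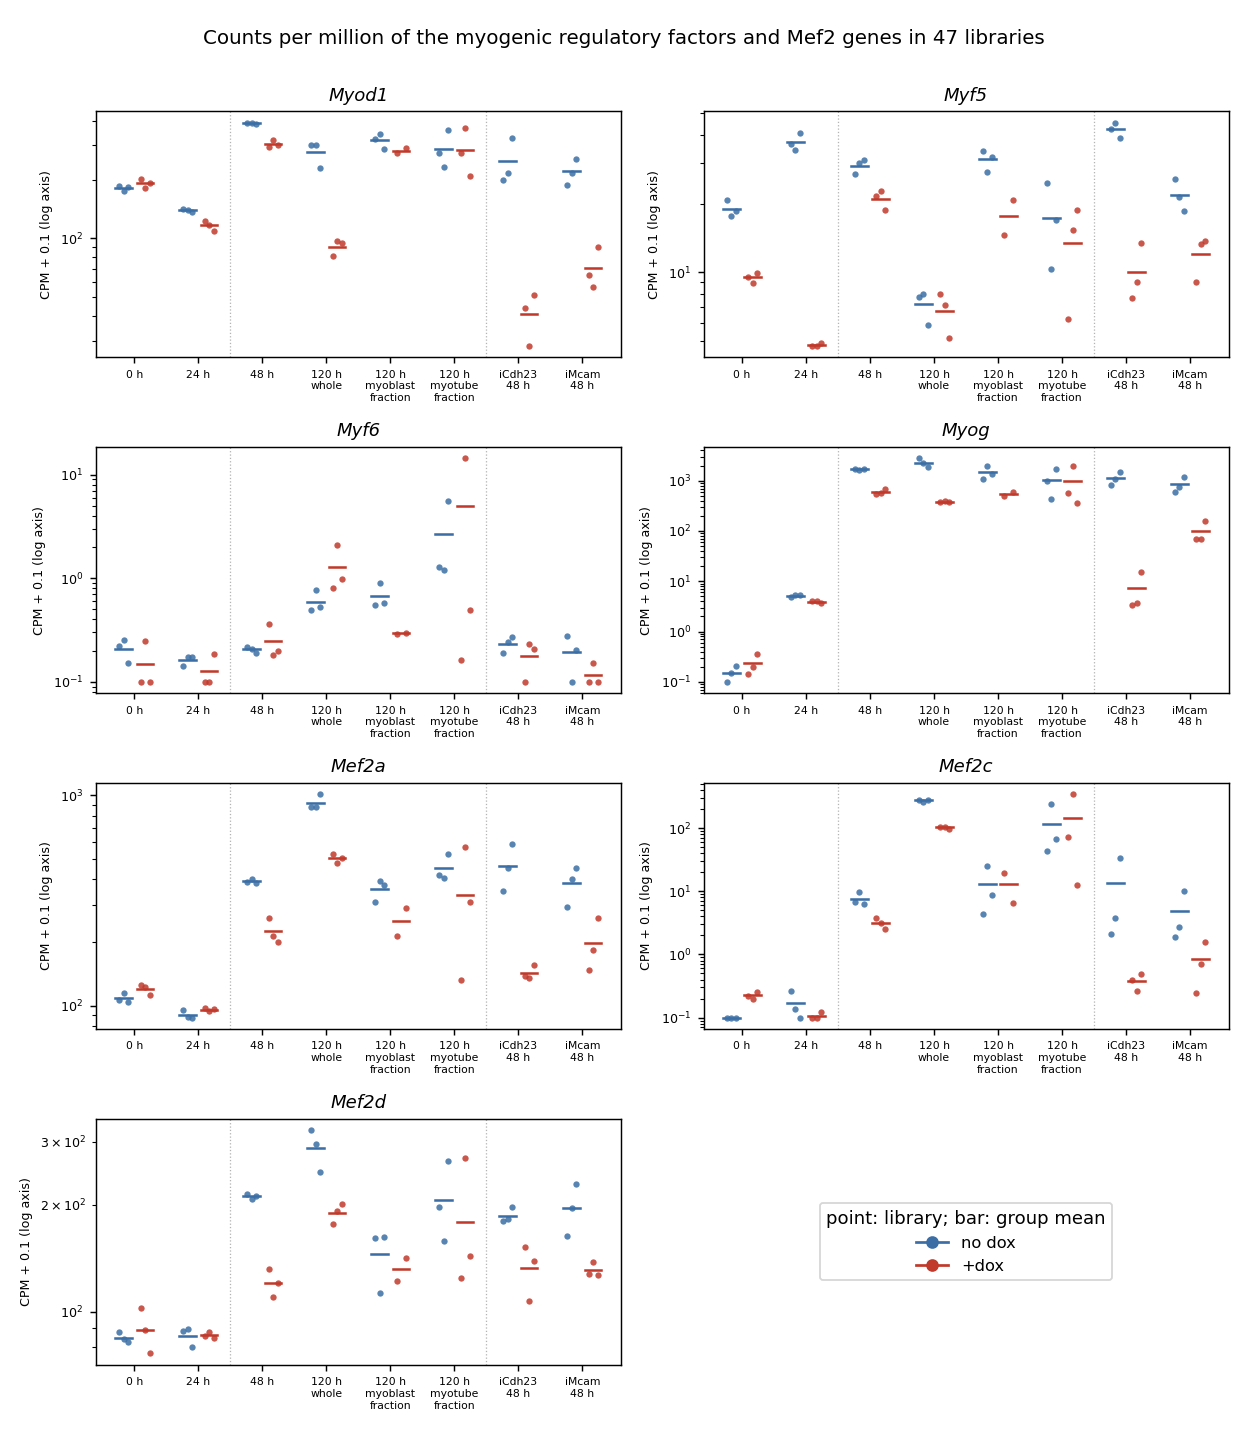
Level of each member (TMM-scaled CPM plus 0.1, log axis) in each of the 47 libraries, by group. Points are libraries and bars group means, blue for no dox and red for +dox, and dotted lines separate the table of 0 and 24 h and the adhesion lines from the rest. *Myog* and *Mef2c* span the widest range, and both are lower in every +dox library of C2C12 iCdh23 and C2C12 iMcam cells than in any no-dox library of the same line.

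With dox, the same cells kept the order of onset but reached lower levels of *Myog*. From 0 to 24 h, 4 of 5 members tested were called (68% of all genes), from 24 to 48 h 6 of 6, each higher (72.4% of all genes), and from 48 to 120 h 7 of 7 (73.5% of all genes). *Myog* was at 0.0410, 0.0986 and 0.254 CPM at 0 h, 3.99, 3.96 and 3.55 CPM at 24 h, 553, 562 and 681 CPM at 48 h and 370.0, 399 and 385 CPM at 120 h. All 3 libraries of 120 h were below all 3 of 48 h (edgeR log2 fold change −0.61, SE 0.0965, adjusted p 6.24e-05), the opposite of the step without dox. Of the first rise of *Myog*, 8 counts at 0 h against 418 at 24 h gave a ratio of 30.5 (counting interval 15.3 to 71.1), and the fitted log2 fold change of 4.93 became 5.79 without replicate 3 of 0 h. *Mef2c* had at most 0.152 CPM in any +dox library of 0 and 24 h, 3.71, 3.01 and 2.46 CPM at 48 h and 105, 105 and 97.4 CPM at 120 h. Its step from 24 to 48 h rested on 1 count against 356 (ratio 349.6, counting interval 62.3 to 13848), and without replicate 3 of 24 h, the library with that count, the fitted log2 fold change of *Mef2c* went from 7.95 to 9.75. *Myf6* was called higher at 120 h than at 48 h, with 0.699, 2.00 and 0.875 CPM against 0.263, 0.0797 and 0.0983 CPM (edgeR log2 fold change 2.95, SE 0.597, adjusted p 0.000528, higher in 3 of 3 libraries). The size of that rise depended on single libraries: the log2 fold change of *Myf6* was 2.36 without replicate 2 of 120 h and 3.73 without replicate 1 of 48 h. *Myf5* fell over the first 24 h where it had risen without dox, from 9.43, 8.88 and 9.81 to 4.66, 4.64 and 4.76 CPM.

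Dox was then compared with no dox at each time in C2C12 iMyoD1 cells. At 0 h, 1 of 4 members tested was called (37.8% of all genes), at 24 h 3 of 5 (62.8%), at 48 h 6 of 6 (56.6%) and in whole cultures at 120 h 5 of 7 (45.2%), and every call was lower with dox. At 0 h the call was *Myf5*, at 20.7, 17.6 and 18.4 CPM without dox and 9.43, 8.88 and 9.81 CPM with dox (edgeR log2 fold change −1.0, SE 0.10, adjusted p 4.12e-06, lower in 3 of 3 +dox libraries). At 24 h *Myf5* was 36.3, 34.4 and 40.6 CPM without and 4.66, 4.64 and 4.76 CPM with dox (edgeR log2 fold change −2.96, SE 0.0881, adjusted p 2.23e-10, lower in 3 of 3 +dox libraries). The groups did not overlap at either time, and the 3 +dox libraries of 24 h lay close together. The change at 24 h was larger than at 0 h by a test of the difference of the dox effects (−2.00 on the log2 scale, SE 0.129, edgeR adjusted p 6.06e-09, lower in 3 of 3 +dox libraries at each time). At 48 h *Myf5* was back to 21.4, 22.6 and 18.6 CPM with dox, against 26.9, 29.9 and 30.9 CPM without (edgeR log2 fold change −0.48, SE 0.0906, adjusted p 0.000977, lower in 3 of 3), and at 120 h the groups overlapped. *Mef2a* at 0 h, with 107, 115 and 104 CPM without and 126, 122 and 112 CPM with dox, was not called (edgeR log2 fold change 0.15, SE 0.0609, adjusted p 0.0651, above all no-dox libraries in 2 of 3), but would be without +dox replicate 3 (adjusted p 0.0261 in edgeR). *Myog* and *Mef2c* were near 0 at that time: *Myog* had 8 counts with dox and 3 without (ratio 2.31, counting interval 0.554 to 13.5), and *Mef2c* 8 counts with dox and none without.

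*Myog*, the differentiation gene, carried the largest dox effects of the members tested in whole cultures from 48 h on. It was 4.77, 5.19 and 5.21 CPM without and 3.99, 3.96 and 3.55 CPM with dox at 24 h, groups that did not overlap (edgeR log2 fold change −0.38, SE 0.123, adjusted p 0.0181, lower in 3 of 3 +dox libraries). This call of *Myog* was lost in 4 of 12 alternatives (adjusted p 0.0186 to 0.0900 over the 12). With all libraries in, it was lost with DESeq2 (0.0847) and in an edgeR fit of all groups of the table (0.0900). With single libraries left out, the adjusted p in edgeR was 0.0709 without +dox replicate 3 and 0.0508 without no-dox replicate 3 of 24 h. At 48 h *Myog* was 1692, 1666 and 1689 CPM without and 553, 562 and 681 CPM with dox (edgeR log2 fold change −1.5, SE 0.0922, adjusted p 3.49e-07, lower in 3 of 3 +dox libraries). At 120 h it was 2774, 2209 and 1893 CPM without and 370.0, 399 and 385 CPM with dox (edgeR log2 fold change −2.58, SE 0.138, adjusted p 1.69e-06, lower in 3 of 3 +dox libraries). The drop thus grew at each step in differentiated cultures: the dox effect changed from 24 to 48 h by −1.12 on the log2 scale (SE 0.140, edgeR adjusted p 1.1e-05, with 4 of 6 members tested and 43.4% of all genes called) and from 48 to 120 h by −1.09 (SE 0.170, edgeR adjusted p 0.00027, with 2 of 7 members and 34.1% of all genes called), each time with every +dox library below every no-dox library. The other member called between 48 and 120 h was *Myod1*.

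*Myod1* itself fell with dox in TMM-scaled CPM from 24 h on in whole cultures, but not detectably in the 120 h fractions. With the values given above, its log2 fold change was −0.23 at 24 h (SE 0.0571, edgeR adjusted p 0.00414), −0.36 at 48 h (SE 0.0595, edgeR adjusted p 0.000447) and −1.62 at 120 h (SE 0.126, edgeR adjusted p 1.32e-05), lower in 3 of 3 +dox libraries each time. From 0 to 24 h the dox effect on *Myod1* changed by −0.37 (SE 0.0796, edgeR adjusted p 0.00167), in a test that called 2 of 5 members and 34.1% of all genes, and from 48 to 120 h by −1.26 (SE 0.145, edgeR adjusted p 1.76e-05), lower in 3 of 3 +dox libraries at 24, 48 and 120 h. In the myoblast-enriched fraction *Myod1* was 324, 343 and 288 CPM without and 274 and 288 CPM with dox (edgeR log2 fold change −0.17, SE 0.140, adjusted p 0.513, below all no-dox libraries in 1 of 2). It was 272, 231 and 358 CPM and 272, 366 and 208 CPM in the myotube-enriched fraction. The groups overlapped in both fractions, and every +dox library of a fraction was above every +dox library of the whole cultures, which are in another table. These totals include any transgene reads.

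The Mef2 genes were first called lower with dox at 48 h, and *Mef2c* could not be tested before. In CPM *Mef2a* differed little with dox at 24 h, with a mean of 90.6 ± 4.02 CPM without and 95.9 ± 1.49 CPM with dox (SD, n = 3 each). It was not called, though without no-dox replicate 1 it was (adjusted p 0.0135 in edgeR). Per transcript length, given below, *Mef2a* was higher with dox at 24 h without overlap. At 48 h it was 389, 399 and 382 CPM without and 263, 214 and 200.1 CPM with dox (edgeR log2 fold change −0.79, SE 0.0941, adjusted p 4.1e-05, lower in 3 of 3 +dox libraries). *Mef2d* was 214, 208 and 211 CPM without and 132, 110.2 and 120.3 CPM with dox at that time (edgeR log2 fold change −0.81, SE 0.0750, adjusted p 6.55e-06, lower in 3 of 3). The change from 24 to 48 h in the dox effect was called for *Mef2a* (−0.91, SE 0.113, edgeR adjusted p 1.02e-05) and *Mef2d* (−0.84, SE 0.0971, edgeR adjusted p 4.53e-06), and in the opposite direction for *Myf5* (2.47, SE 0.126, edgeR adjusted p 8.67e-10), with 3 of 3 +dox libraries of 48 h below all no-dox libraries for each gene. At 120 h *Mef2a* was 876, 880.1 and 1012 CPM without and 526, 477 and 506 CPM with dox, *Mef2d* 323, 295 and 246 and 176, 191 and 201 CPM, and *Mef2c* 281, 261 and 282 and 105, 105 and 97.4 CPM. All 3 were called lower, without overlap, with log2 fold changes of −0.88, −0.61 and −1.43. *Myf5*, whose groups overlapped, and *Myf6* were not called in whole cultures at 120 h. *Myf6* was at 0.389, 0.671 and 0.423 CPM without and 0.699, 2.00 and 0.875 CPM with dox, higher in 3 of 3 +dox libraries but not called (edgeR log2 fold change 1.24, SE 0.540, adjusted p 0.0898).

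**Figure D2:**
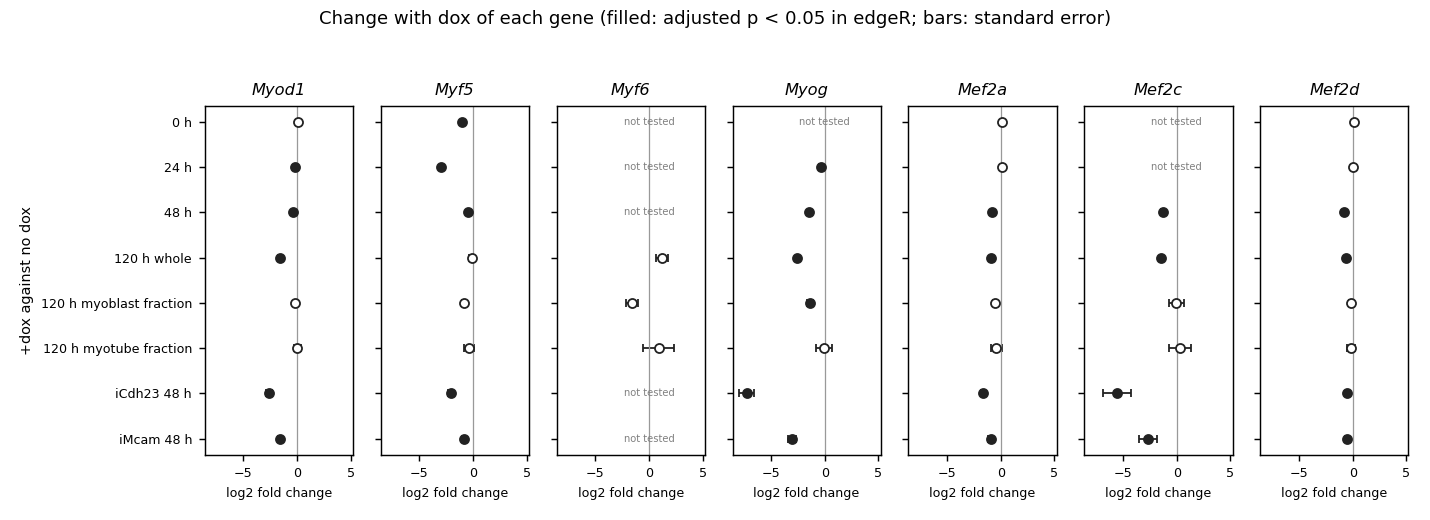
log2 fold change of each member with dox against no dox in the 8 comparisons, from edgeR. Points are estimates, bars span 1 SE either way, and filled points were called at an adjusted p under 0.05. *Myog* is lowered at 24, 48 and 120 h in whole cultures and furthest in C2C12 iCdh23 cells, while *Myf5* falls most in C2C12 iMyoD1 cells at 24 h.

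The 120 h fractions show whether the members' levels and dox effects differ between cells that passed the filter and cells held back. In the myoblast-enriched fraction 1 of 7 members was called with dox (4.34% of all genes): *Myog*, at 1070.2, 1963 and 1348 CPM without and 488 and 599.9 CPM with dox (edgeR log2 fold change −1.42, SE 0.277, adjusted p 0.0378, lower in 2 of 2 +dox libraries). The 2 +dox libraries lay below all 3 no-dox libraries. This *Myog* call was lost without either +dox library, which leaves 1 that is assumed to vary like the other group, with adjusted p in edgeR of 0.273 without replicate 2 and 0.121 without replicate 3, and without no-dox replicate 3 (0.126). With all libraries in, it was lost in a fit of all groups of the tables (adjusted p 0.412, range over 11 alternatives 2.49e-07 to 0.412), which called 1 of 15674 genes. The main fit called 619 genes, DESeq2 1569, a fit with no low-count filter 1978 and one with a replicate block 4051. With that block *Myf5* (edgeR adjusted p 0.0033) and *Mef2a* (0.0131) were called as well. *Myf5* in that fraction was 33.8, 27.5 and 32.1 CPM without and 14.4 and 20.6 CPM with dox and was not called (edgeR log2 fold change −0.82, SE 0.196, adjusted p 0.0609, lower in 2 of 2), but was without no-dox replicate 2 (adjusted p 0.0386). At an unadjusted p under 0.05 edgeR gave 4 members in that comparison, and DESeq2 called 2. *Myf6* had 10 counts with and 43 without dox there (ratio 0.323, counting interval 0.145 to 0.653).

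In the myotube-enriched fraction no member was called with dox by edgeR (0 of 7, 0% of all genes), none had an unadjusted p under 0.05 and DESeq2 called 0. The libraries of that fraction were widely spread. *Myog* was 966, 438 and 1718 CPM without and 574, 1993 and 364 CPM with dox, *Mef2c* 43.6, 237 and 68.3 and 73.3, 342 and 12.5 CPM, and *Myf6* 1.19, 1.10 and 5.46 and 0.0638, 14.3 and 0.395 CPM. Replicate 2 with dox was the highest of the 47 libraries for *Myf6* and *Mef2c*, while the other +dox libraries of the fraction lay below all no-dox libraries for *Myf6*. The other members ranged widely too, *Myod1* in the myotube-enriched fraction from 208 to 366 CPM with dox and *Mef2a* from 132 to 567 CPM. A difference in the dox effect between the fractions was called for 0 of 7 members in edgeR (0% of all genes), with 0 at an unadjusted p under 0.05 and 0 by DESeq2. So the *Myog* call in the myoblast-enriched fraction alone does not show that the fractions differ. The fractions are what passed and what was held back of filtered cultures. Neither the labels nor the methods say that like replicate numbers mark the same culture, and these fits had no replicate block. Fractions compared directly gave 0 of 7 members called without dox in edgeR (0.592% of all genes), with 3 at an unadjusted p under 0.05 and 2 by DESeq2, and 0 of 6 with dox (0% of all genes), with 1 at an unadjusted p under 0.05 and 0 by DESeq2. *Mef2c* without dox was 4.30, 25.4 and 8.74 CPM in the myoblast-enriched and 43.6, 237 and 68.3 CPM in the myotube-enriched fraction, above in 3 of 3 libraries but not called (edgeR log2 fold change 3.17, SE 0.796, adjusted p 0.122). With the replicate number as a block this difference in *Mef2c* was called (edgeR adjusted p 0.00326), with 676 genes called in place of 83. Of the 8 myotube markers 2 were called higher in the myotube-enriched fraction without dox and 0 with dox in edgeR (with dox 4 at an unadjusted p under 0.05 and 0 by DESeq2), so these markers set the fractions apart only in part.

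The adhesion lines were compared at 48 h. In C2C12 iCdh23 cells 6 of 6 members tested were called lower with dox (63.8% of all genes called), and in C2C12 iMcam cells also 6 of 6 (49%), with no overlap between the libraries for any of the 6 genes in either line. In an edgeR fit of all groups of the tables, 5 of 6 were called in C2C12 iCdh23 cells, without *Mef2d* (adjusted p 0.113, range over 12 alternatives 0.00190 to 0.113). In C2C12 iMcam cells that fit called 3 of 6, without *Myf5* (0.0610, range 0.000305 to 0.0610), *Mef2c* (0.149, range 0.000912 to 0.149) and *Mef2d* (0.0855, range 0.000523 to 0.0855). In C2C12 iCdh23 cells *Myog* was 811, 1089 and 1465 CPM without and 3.24, 3.62 and 15.1 CPM with dox (edgeR log2 fold change −7.26, SE 0.705, adjusted p 9.26e-05, lower in 3 of 3 +dox libraries). In C2C12 iMcam cells it was 607, 746 and 1177 CPM without and 70.1, 69.0 and 161 CPM with dox (edgeR log2 fold change −3.06, SE 0.400, adjusted p 0.000972, lower in 3 of 3). Replicate 3 was the highest of its group in all 4 groups, and without the +dox replicate 3 of C2C12 iCdh23 the log2 fold change of *Myog* there was −8.35. *Myod1* was 198, 217 and 328 CPM without and 44.0, 28.1 and 51.5 CPM with dox in C2C12 iCdh23 cells (edgeR log2 fold change −2.59, SE 0.280, adjusted p 0.000156, lower in 3 of 3), and 188, 217 and 256 and 65.2, 56.1 and 89.8 CPM in C2C12 iMcam cells (edgeR log2 fold change −1.63, SE 0.189, adjusted p 0.000626, lower in 3 of 3). *Myf5* was 42.6, 45.2 and 38.8 CPM without and 7.57, 8.99 and 13.3 CPM with dox in C2C12 iCdh23 cells (edgeR log2 fold change −2.09, SE 0.202, adjusted p 9.26e-05, lower in 3 of 3), and 25.6, 21.3 and 18.4 and 8.93, 13.2 and 13.6 CPM in C2C12 iMcam cells (edgeR log2 fold change −0.85, SE 0.194, adjusted p 0.00888, lower in 3 of 3). These 2 lines carry no MyoD1 transgene by their labels, so the *Myod1* counts there are of the endogenous gene.

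The Mef2 genes of the adhesion lines split by size of effect. *Mef2c* was 1.99, 3.73 and 34.1 CPM without and 0.291, 0.162 and 0.393 CPM with dox in C2C12 iCdh23 cells (edgeR log2 fold change −5.56, SE 1.27, adjusted p 0.00629, lower in 3 of 3 +dox libraries). No-dox replicate 3 was far above the other no-dox libraries, and without no-dox replicate 3 the log2 fold change of *Mef2c* was −3.34. In C2C12 iMcam cells *Mef2c* was 1.82, 2.60 and 9.98 CPM without and 0.147, 0.613 and 1.47 CPM with dox (edgeR log2 fold change −2.66, SE 0.836, adjusted p 0.032, lower in 3 of 3). There the call of *Mef2c* was lost without +dox replicate 1 (adjusted p 0.0816), +dox replicate 2 (0.0998) or no-dox replicate 3 (0.0891, with a log2 fold change of −1.53), and the log2 fold change was −3.63 without +dox replicate 3. *Mef2a* was 349.6, 453 and 587 CPM without and 139, 135 and 157 CPM with dox in C2C12 iCdh23 cells (edgeR log2 fold change −1.69, SE 0.190, adjusted p 0.000189, lower in 3 of 3), and 295, 400.4 and 451 and 147, 185 and 262 CPM in C2C12 iMcam cells (edgeR log2 fold change −0.93, SE 0.230, adjusted p 0.0126, lower in 3 of 3). The latter *Mef2a* call was lost without +dox replicate 2 (adjusted p 0.0515). *Mef2d* changed least, by −0.49 in C2C12 iCdh23 and −0.56 in C2C12 iMcam cells on the log2 scale, and was lower in 3 of 3 +dox libraries of each line.

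A test of the difference between the lines' dox effects called 2 of 6 members (10.6% of all genes), both with the larger fall in C2C12 iCdh23 cells. They were *Myog* (difference −4.18 on the log2 scale, SE 0.768, edgeR adjusted p 0.00606) and *Myf5* (−1.22, SE 0.292, edgeR adjusted p 0.0211), with 3 of 3 +dox libraries below the no-dox libraries in each line. Without +dox replicate 3 of C2C12 iCdh23 the difference for *Myog* was −5.27. For *Myf5* the call was lost in a fit of all groups of the tables, with all libraries in (adjusted p 0.259, range over 18 alternatives 0.00191 to 0.259, with 373 genes called in place of 1548). It was also lost without +dox replicate 2 (adjusted p 0.0613) or no-dox replicate 2 (0.0526) of C2C12 iCdh23, and without +dox replicate 2 (0.0514), +dox replicate 3 (0.0539) or no-dox replicate 2 (0.0505) of C2C12 iMcam. With the replicate number as a block the test also called *Mef2a* and *Myod1*, with 2250 genes called in place of 1548. Like-numbered libraries with and without dox correlated at 0.134 to 0.309 in C2C12 iMcam and 0.0116 to 0.113 in C2C12 iCdh23 cells. Without dox the lines differed in 0 of 6 members by edgeR (0.409% of all genes called), with 1 at an unadjusted p under 0.05 and 1 by DESeq2, both *Myf5*. *Myf5* was 42.6, 45.2 and 38.8 CPM in uninduced C2C12 iCdh23 and 25.6, 21.3 and 18.4 CPM in uninduced C2C12 iMcam cells, higher in 3 of 3 libraries (edgeR log2 fold change 0.94, SE 0.145, adjusted p 0.0578). The larger fall of *Myf5* in C2C12 iCdh23 cells thus started from a higher level, and its +dox libraries overlapped those of C2C12 iMcam cells.

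Across the 16 groups the members kept different orders of level. *Myod1* was highest at 48 h without dox, at 388 ± 3.44 CPM (SD, n = 3), and lowest in C2C12 iCdh23 cells with dox, at 41.2 ± 12 CPM, a 9.42-fold span. *Myf5* was highest in C2C12 iCdh23 cells without dox, at 42.2 ± 3.21 CPM, and lowest at 24 h with dox in C2C12 iMyoD1 cells, at 4.69 ± 0.0678 CPM, a 9.01-fold span. *Myog*, *Mef2a*, *Mef2c* and *Mef2d* were all highest in whole cultures at 120 h without dox, at 2292 ± 446, 922 ± 77.3, 275 ± 12.1 and 288 ± 39.0 CPM. *Mef2d* had the narrowest span, 3.40-fold down to 84.6 CPM at 0 h without dox, and *Mef2a* spanned 10.2-fold. Of the 15 pairs of neighbours in each order, the libraries overlapped in 9 for *Myog*, 10 for *Myod1*, 11 each for *Mef2a* and *Myf5*, 12 for *Mef2c*, 13 for *Mef2d* and 14 for *Myf6*, so most neighbouring groups did not differ beyond their spread. For *Myog* both groups of 0 h lay below both of 24 h, and the +dox group of C2C12 iCdh23 cells overlapped those of 24 h.

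Levels of different genes were compared per transcript length, in per-length units that sum to the same total in every library. At 0 h without dox *Myod1* was at 182 units, 91.4% of the sum of the 4 MRF genes, and *Myog* made up 0.0322%. At 24 h without dox *Myf5* had its largest share, 18.5%, against 3.34% with dox. In these units the 24 h libraries with and without dox overlapped for *Myod1*, with means of 123 with and 115 without dox. They overlapped for *Myog* too (5.05 with and 5.17 without dox), so the lower CPM of both genes with dox at 24 h depends on the scaling. *Mef2a* was higher with dox in these units, without overlap, at 0 and 24 h. It was at 42.0 to 47.3 units without and 50.3 to 57.8 units with dox at 0 h. At 24 h *Mef2a* was at 26.4 to 34.2 units without and 38.6 to 41.6 units with dox. At 48 h without dox *Myog* was at 1824 units and 83.5% of the MRF sum, and *Myod1* at 338 units and 15.5%. *Myog* was thus the most abundant MRF transcript from 48 h on, with 1 exception. In C2C12 iCdh23 cells with dox *Myod1* made up 70.6% of the MRF sum, *Myf5* 15.5% and *Myog* 13.7%, against 14.8%, 2.38% and 82.8% without dox, a composition between those of 24 h and 48 h without dox in C2C12 iMyoD1 cells. In C2C12 iMcam cells *Myog* still held 58.8% with dox. The MRF sum went from 1838 to 86.4 units with dox in C2C12 iCdh23 cells and from 1475 to 284 units in C2C12 iMcam cells. The sum of the 3 Mef2 genes changed less, from 304 to 161 and from 281 to 187 units. Among the Mef2 genes *Mef2d* led at 24 h with 56.4% without dox, *Mef2a* led at 48 h with 57.2%, and *Mef2c* reached 17.7% in whole cultures at 120 h without dox.

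Mef2 transcripts are spliced in ways known from muscle, so the shares of annotated exons were read from the transcript counts. Each of the 3 genes has a pair of mutually exclusive exons, in *Mef2d* with the second as the muscle form, and a short exon (the β exon), which striated muscle and neurons include. Shares are percentages of the gene's estimated counts in transcripts that hold the exon. The authors' counts come from a program that divides reads between transcripts sharing sequence, and its uncertainty is not in the tables. With 3 libraries against 3 an exact two-sided permutation test cannot give a p below 0.1, so no test was made. In GENCODE vM21 (GRCm38) coordinates, with the exon in capitals between 15 bases of the neighbouring exons on either side, the short exons read:
*Mef2a* short exon, chr7:67244521-67244544, minus strand: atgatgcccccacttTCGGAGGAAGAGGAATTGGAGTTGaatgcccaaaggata
*Mef2c* short exon, chr13:83654598-83654621, plus strand: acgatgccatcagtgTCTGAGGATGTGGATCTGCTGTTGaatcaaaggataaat
*Mef2d* short exon, chr3:88161781-88161801, plus strand: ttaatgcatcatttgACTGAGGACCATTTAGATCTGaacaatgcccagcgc

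The short exon of *Mef2a* was in a larger share of counts in whole cultures of 48 and 120 h than of 0 and 24 h. In C2C12 iMyoD1 cells without dox its share was 65.3, 53.5 and 60.8% at 0 h, 59.0, 67.2 and 77.8% at 24 h, 96.1, 95.6 and 95.6% at 48 h and 87.0, 86.9 and 86.6% at 120 h. Every library of 48 h was above every library of the other times, the libraries of 0 and 24 h overlapped, and the step from 24 to 48 h again crosses the batches. With dox in C2C12 iMyoD1 cells the means were 60.8%, 61.3%, 97.5% and 87.0%. In the 120 h fractions, from another deposited table, the means were 96.1% without and 96.7% with dox in the myoblast-enriched and 93.9% and 95.7% in the myotube-enriched fraction. The share was thus no lower in the myoblast-enriched fraction, and whole cultures and fractions of 120 h differed, so this share did not follow differentiation throughout. No annotated *Mef2a* transcript holds both the short exon and the second exon of the pair. In whole C2C12 iMyoD1 cultures of 48 and 120 h the share of the short exon equalled that of the first exon. The second exon was in 4.23% at 48 h and 13.1% at 120 h without dox. The lower share of the short exon at 120 h thus cannot be told apart from the change in the pair. In C2C12 iCdh23 cells the short exon's share fell with dox, from 88.4, 88.8 and 87.6% to 65.5, 76.0 and 72.9%, and in C2C12 iMcam cells from 89.7, 86.4 and 91.8% to 75.6, 66.0 and 77.6%. The 3 +dox libraries of each line lay below all 3 no-dox libraries. Counts divided by transcript length gave a like fall, from 78.5% to 63.0% in C2C12 iCdh23 and from 80.8% to 63.9% in C2C12 iMcam cells. *Mef2c* reached the 50 counts set for a share in every library of a group only in C2C12 iMyoD1 cells of 48 and 120 h. In the adhesion lines 2 libraries of uninduced C2C12 iCdh23 and 1 of uninduced C2C12 iMcam cells reached it, and their shares are not given. In whole cultures at 120 h without dox its short exon was in 24.6 ± 1.44%, the first exon of its pair in 37.7 ± 0.882% and the second in 61.2 ± 1.64% of counts (SD, n = 3), and with dox the means were 25.8%, 41.3% and 57.7%.

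With dox in the adhesion lines, the shares of the 2 rarer exon forms of *Mef2d* fell. The first exon of the pair, in most *Mef2d* counts, went from 91.5% to 98.9% in C2C12 iCdh23 cells and from 92.5% to 97.2% in C2C12 iMcam cells. The exchanged exons of *Mef2d*, printed since the share of the second fell by the largest ratio with dox in C2C12 iCdh23 cells, though by fewer percentage points than that of the *Mef2a* short exon, differ in length by 3 bases (138 and 135), both on the plus strand:
*Mef2d* first exon of the pair, chr3:88158034-88158171: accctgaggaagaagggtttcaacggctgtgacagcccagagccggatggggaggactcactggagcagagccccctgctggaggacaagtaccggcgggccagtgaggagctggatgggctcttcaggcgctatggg
*Mef2d* second exon of the pair, chr3:88158221-88158355: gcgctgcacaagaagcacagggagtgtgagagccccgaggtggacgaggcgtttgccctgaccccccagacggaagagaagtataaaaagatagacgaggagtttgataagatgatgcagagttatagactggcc
The second exon is in 1 annotated transcript of *Mef2d*, the short exon in 1 other, and no annotated transcript holds both. In C2C12 iCdh23 cells the second exon made up 8.19, 7.73 and 8.90% of *Mef2d* counts without and 1.22, 0.863 and 0.500% with dox, and in C2C12 iMcam cells 6.35, 7.64 and 7.99% and 2.32, 2.37 and 2.83%. The groups were far apart in both lines, and the +dox shares of C2C12 iCdh23 cells were below all of C2C12 iMcam cells. The short exon of *Mef2d* fell likewise, from 8.74, 9.52 and 8.66% to 1.85, 1.78 and 2.56% in C2C12 iCdh23 and from 7.40, 12.8 and 8.15% to 2.60, 3.11 and 4.10% in C2C12 iMcam cells. In C2C12 iMyoD1 cells at 48 h the second exon was in 6.59 ± 0.827% of counts without and 3.23 ± 1.04% with dox (SD, n = 3 each), and at 0 h in 3.24 ± 1.30% and 1.12 ± 0.359%. At 24 h it was in 4.93 ± 0.513% without and 3.27 ± 0.229% with dox, groups that did not overlap. In whole cultures at 120 h it was in 6.81, 6.06 and 3.61% and 2.76, 5.79 and 3.55%, groups that overlapped. The short exon of *Mef2d* in C2C12 iMyoD1 cells did not fall at 0 h, with 2.77% without and 2.92% with dox. At 24 h its groups overlapped, with means of 6.33% and 4.70%. It was lower with dox, without overlap, at 48 h (6.51 ± 0.453% and 3.35 ± 1.23%, SD, n = 3 each). The same held in whole cultures at 120 h, with means of 5.87% and 3.83%. Both transcripts are annotated with shorter 3′ ends than the main one, so their shares per length were higher, for the second exon in C2C12 iCdh23 cells 16.7% without and 2.16% with dox.

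**Figure D3:**
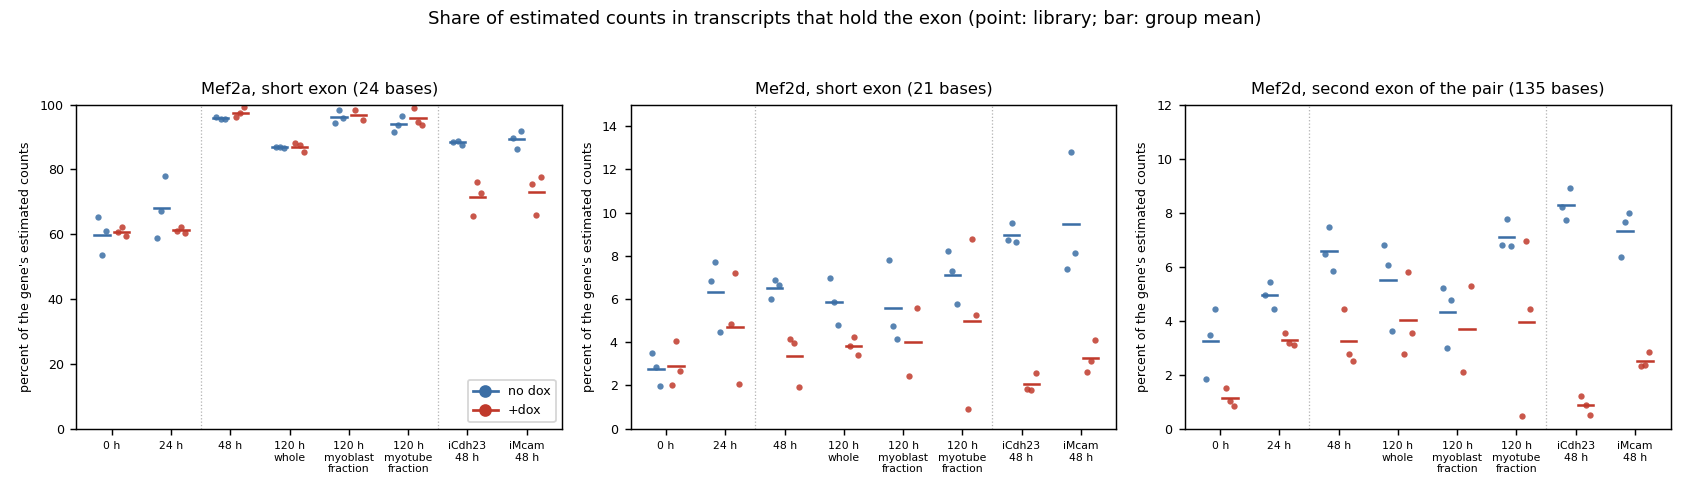
Share (percent of the gene's estimated counts) in transcripts with the *Mef2a* short exon, the *Mef2d* short exon and the second *Mef2d* exchanged exon, by group. Points are libraries and bars group means, blue for no dox and red for +dox. In C2C12 iCdh23 and C2C12 iMcam cells every +dox library lies below every no-dox library in all 3 panels.

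The members lie on 5 chromosomes. Their gene IDs are ENSMUSG00000009471 (*Myod1*), ENSMUSG00000000435 (*Myf5*), ENSMUSG00000035923 (*Myf6*), ENSMUSG00000026459 (*Myog*), ENSMUSG00000030557 (*Mef2a*), ENSMUSG00000005583 (*Mef2c*) and ENSMUSG00000001419 (*Mef2d*). *Myf5* (chr10:107482908-107486134) and *Myf6* (chr10:107492853-107494737) are neighbours on the minus strand of GRCm38, with 6718 bases between them, yet *Myf6* stayed near 0 where *Myf5* was highest. *Myod1* (chr7:46376474-46379099, plus strand) and *Mef2a* (chr7:67231163-67372858, minus strand) share a chromosome, and *Myog* (chr1:134289989-134292548), *Mef2c* (chr13:83504034-83667080) and *Mef2d* (chr3:88142372-88172086) are on plus strands. Each MRF gene had 1 transcript in the tables, *Mef2a* 8, *Mef2c* 31 and *Mef2d* 7. *Mef2a* overlaps *Gm44667* and *Gm44668* on its own strand and *Lysmd4* on the other, and *Mef2d* overlaps the antisense gene *1700113A16Rik*. The RefSeq promoter table (GRCm38.p6) held 7 windows of 300 bases, 250 before and 50 from the transcript start, for 5 of 7 members, but none for *Myod1* or *Myf6*. Windows were searched on both strands for CANNTG (an E-box, in 72.3% of 32851 promoters of that length), CAGCTG (16.3%) and a MEF2 match, CTANNNNTA with A or T at each N (3.60%). *Myog* had 2 CANNTG, with first bases 138 and 12 before the start, 1 MEF2 match 64 before the start and no CAGCTG. *Mef2a*, which moved with *Myog* over the groups, had 2 overlapping MEF2 matches that begin 2 and 1 bases before the start, and no CANNTG. *Mef2c* had 2 CANNTG in the first of 3 windows, none in the second and 1 in the third, and no MEF2 match, while *Mef2d* and *Myf5* had none of the 3 motifs. A match is a description of letters and shows no binding. With matches in capitals, the promoters with a MEF2 match read:
*Myog* promoter, chr1:134289754-134290053, plus strand: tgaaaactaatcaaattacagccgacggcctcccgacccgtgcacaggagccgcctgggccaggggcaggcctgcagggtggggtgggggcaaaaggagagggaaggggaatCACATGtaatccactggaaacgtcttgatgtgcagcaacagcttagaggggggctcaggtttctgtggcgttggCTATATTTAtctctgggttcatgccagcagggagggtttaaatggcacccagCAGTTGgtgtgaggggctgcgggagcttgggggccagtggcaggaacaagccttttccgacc
*Mef2a* promoter, chr7:67372809-67373108, minus strand: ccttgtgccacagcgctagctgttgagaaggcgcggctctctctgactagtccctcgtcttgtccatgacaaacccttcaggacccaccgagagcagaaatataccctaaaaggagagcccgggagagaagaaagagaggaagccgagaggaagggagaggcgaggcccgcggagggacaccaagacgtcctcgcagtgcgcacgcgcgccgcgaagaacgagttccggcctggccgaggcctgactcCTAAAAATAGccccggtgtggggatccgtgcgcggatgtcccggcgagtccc

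Other genes of the pathway came from lists, whose counts are descriptions to be read beside those of all genes and not tests of the lists. Over all genes dox raised 2592 and lowered 2530 of 13550 tested at 0 h and raised 4384 and lowered 4464 of 14078 at 24 h. The counts were 3865 and 3980 of 13871 at 48 h and 2922 and 3232 of 13627 in whole cultures at 120 h. The same counts over all genes were 4460 and 4611 of 14227 in C2C12 iCdh23 cells and 3320 and 3402 of 13731 in C2C12 iMcam cells. Of 25 muscle genes under MRF and MEF2 control, 16 could be tested at 0 h, and dox raised 10 and lowered 1 (median log2 fold change 0.72, with *Mymk*, which drives fusion, highest at 2.19). At 24 h dox raised 6 and lowered 2 of 22 tested (median 0.40). From 48 h on the direction was the other: 23 of 25 were lower at 48 h (median −1.21), and 17 lower and 2 higher at 120 h (median −0.76). With dox in C2C12 iCdh23 cells 25 of 25 were lower (median −6.14) and in C2C12 iMcam cells 25 of 25 (median −2.69), while in both fractions edgeR called 0 of 25, with 6 at an unadjusted p under 0.05 and 4 by DESeq2 in the myoblast-enriched fraction and 0 and 0 in the myotube-enriched fraction. Over all genes tested the median lay within 0.1 of 0 in each of these comparisons. So in whole cultures at 48 and 120 h and in the adhesion lines most of the list fell with dox, as *Myog* and *Mef2c* did. At 0 h 10 of 16 were raised, and at 24 h most were not called. The 8 myotube markers, 5 of them on this list, summed to far less at 0 h than at 48 h, as given above. For proliferating cells the paper reports no early activation of myogenic genes by dox, the fusogen genes included. The list shares 5 of the 8 myotube and 2 of the 6 myoblast markers.

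Among dimer partners and inhibitors, the 3 E-protein genes (*Tcf3*, *Tcf4*, *Tcf12*) changed in both directions. Dox raised 2 of 3 at 48 h in C2C12 iMyoD1 cells, where 56.6% of all genes were called (median log2 fold change 0.26, *Tcf4* by 0.51 on the log2 scale). It raised *Tcf3* (0.29) and lowered *Tcf12* (−0.80) in C2C12 iCdh23 cells (63.8% of all genes, median of the 3 genes 0.08). In C2C12 iMcam cells edgeR called 0 of 3 (median 0.20) and 49% of all genes, with 0 of the 3 at an unadjusted p under 0.05 and 0 by DESeq2. Of the 4 Id genes dox raised 1 (*Id3*, 0.58) and lowered 2 (*Id2*, −2.95) at 48 h, where 56.6% of all genes were called. Dox lowered 2 of 3 tested in C2C12 iCdh23 (*Id1*, −1.77, with 63.8% of all genes called) and 2 of 4 in C2C12 iMcam cells (*Id2*, −2.56, with 49%). The medians of the Id genes were −1.07, −1.62 and −0.54. Their summed level without dox was 333 CPM at 0 h, 18.0 CPM at 24 h and 168 CPM at 48 h. It was thus lowest of these times at 24 h, and the step from 24 to 48 h crosses the batches. Of 11 other repressors of MRFs or MEF2, dox raised 2 and lowered 8 of 10 tested at 48 h (56.6% of all genes called). It raised 1 and lowered 9 of 10 in C2C12 iCdh23 cells (63.8% of all genes) and lowered 7 of 10 in C2C12 iMcam cells (49%). The medians of these repressors were −0.84, −2.21 and −1.26. *Msc*, a bHLH repressor, fell furthest each time, with changes of −3.59, −4.86 and −3.74 on the log2 scale.

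Of the 4 class IIa histone deacetylases, which repress MEF2, dox raised 3 and lowered 1 at 48 h in C2C12 iMyoD1 cells (56.6% of all genes called). It raised 1 and lowered 3 in C2C12 iCdh23 cells (63.8% of all genes) and raised 1 and lowered 1 in C2C12 iMcam cells (49%). The median log2 fold changes of the 4 genes were 0.38, −0.99 and 0.06. *Hdac9* was the one lowered furthest, with changes of −2.61, −4.24 and −2.46 on the log2 scale. Of 10 MEF2 co-activators and kinases dox raised 6 of 9 tested at 0 h (median 0.20, with 37.8% of all genes called). *Mamstr*, a MEF2 co-activator, was then highest (1.75). At 24 h dox raised 6 and lowered 1 of 9 (median 0.29, with 62.8% of all genes called). At 48 h it raised 4 and lowered 4 of 10 (median −0.06, with 56.6% of all genes called), and *Mamstr* was then the lowest (−1.37). Dox raised 5 and lowered 3 of 10 in C2C12 iCdh23 cells (median 0.0043, with 63.8% of all genes called). In C2C12 iMcam cells it raised 3 and lowered 2 (median 0.0013, with 49% of all genes called). *Vgll2* was lowest in both lines (−5.51 and −4.27).

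Likeness over the groups was measured by Pearson correlation of log2(CPM + 1) over the 16 group means, among 12086 genes with at least 5 CPM in a group, as a description without a test. The groups share libraries' batches and differentiation state. *Myog* was most like *Rbm24* (0.990), *Mybph* (0.989) and *Acta1* (0.986). *Mef2a* was most like *Svil* (0.987), *Gm43302* (0.978) and *Gbp10* (0.976), *Mef2c* like *Hephl1* (0.989), *Txlnb* (0.981) and *Scn4a* (0.970), and *Mef2d* like *Svil* (0.960), *Mef2a* (0.960) and *Zfp697* (0.956). The lineage genes stood apart: *Myod1* was most like *Yif1a* (0.957), *Tubb2a* (0.943) and *Myl12a* (0.940), and *Myf5* like *Nr2f2* (0.849), *Mri1* (0.838) and *Nudt19* (0.816). *Myf6* did not reach 5 CPM in any group mean. Between members the correlation was 0.895 for *Myog* and *Mef2a*, 0.860 for *Myog* and *Mef2d*, 0.549 for *Myod1* and *Myog*, 0.276 for *Myf5* and *Myog*, 0.776 for *Myog* and *Mef2c* and 0.419 for *Myf6* and *Myog*. By this measure *Myog* tracked the Mef2 genes more closely than it tracked the other MRF genes.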

How the data were processed

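The authors deposited 3 tables of estimated counts per transcript (expected counts from salmon, run within nf-core/rnaseq on mm10), and no column was left unused. Counts were summed per gene symbol, or per gene ID where there was none, with GENCODE vM21, and rounded. CPM used TMM factors over all 47 libraries, and per-length values divided counts by annotated transcript length. Each comparison was fitted in edgeR 4.0.16 (quasi-likelihood, filterByExpr, TMM; R 4.3.3, limma 3.58.1) on only its groups, without covariates, and p-values were adjusted by Benjamini-Hochberg over all genes tested. Alternatives were DESeq2 1.42.0, RLE factors, no low-count filter, a fit of all groups of the tables concerned, a replicate block, length-scaled counts and leaving out each library. Replicate numbers were checked for pairing by correlating the deviations of like-numbered libraries from their group means: only dox against no dox in C2C12 iMcam cells had 3 of 3 pairs above 0.1 (0.134 to 0.309). Replicates were checked for duplicates, and the chi-square per degree of freedom between them was at least 3.04. The members, *Cdh23* and *Mcam* were always named, besides the 3 most alike genes of each member and, from each list, the called genes with the largest change and the most abundant. Members and lists were chosen with earlier results of these data known. The lists were the 3 E-proteins, 4 Id genes, 11 other repressors, 4 class IIa histone deacetylases, 10 MEF2 co-activators and kinases, 25 muscle genes and the 8 sets of markers. Summaries and plots used Python 3.11.15 with pandas 2.3.3, numpy 2.4.6, scipy 1.17.1 and matplotlib 3.10.9.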

Additional observations from a re-analysis of the deposited data

Results flagged for a closer look

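These 10 results met a rule that looks for dox effects that differ between times or lines by a test of the difference itself, in edgeR. Between 0 and 24 h the dox effect changed by −2.00 on the log2 scale for *Myf5* and by −0.37 for *Myod1*. Between 24 and 48 h it changed by 2.47 for *Myf5*, back towards no difference, and by −0.91 for *Mef2a*, −0.84 for *Mef2d* and −1.12 for *Myog*. Between 48 and 120 h it changed by −1.26 for *Myod1* and −1.09 for *Myog*. Between the lines the dox effect in C2C12 iCdh23 less that in C2C12 iMcam cells was −4.18 for *Myog* and −1.22 for *Myf5*. The tests share groups, so these 10 differences are not independent of each other. Their causes were not tested.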

How the results depend on the processing

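Of 71 member results called, 63 were called under every alternative run and 8 were lost in at least 1, and 0 changed direction. Of 62 not called, 10 were called in at least 1 alternative. Of the 52 called in no fit, 26 changed sign in at least 1. Counts of members called that changed were these, and the cause was not tested. With DESeq2 dox at 24 h gave 2 in place of 3 (*Myog* lost), the step from 48 to 120 h without dox 7 in place of 6 (*Myf6*, not tested in edgeR with its filter, added), the myoblast-enriched fraction 2 with dox in place of 1 (*Myf5* added), the fractions without dox 2 in place of 0 (*Mef2c*, *Myf6*) and the uninduced adhesion lines 1 in place of 0 (*Myf5*). With no low-count filter the myoblast-enriched fraction gave 2, the fractions without dox 1 (*Mef2c*), the uninduced lines 1, the step from 48 to 120 h without dox 7 and the change in the dox effect from 0 to 24 h 3 in place of 2 (*Mef2c* added). With length-scaled counts 0 to 24 h without dox gave 5 in place of 4 (*Mef2d* added), and with RLE factors no count changed. In a fit of all groups of the tables, where spread is shared over groups, dox at 0 h gave 2 in place of 1 (*Mef2a* added), the myoblast-enriched fraction 0, C2C12 iMcam cells 3 in place of 6 (*Myf5*, *Mef2c* and *Mef2d* lost) and the difference between the adhesion lines 1 in place of 2 (*Myf5* lost). It also gave 5 in place of 6 in C2C12 iCdh23 cells (*Mef2d* lost), 2 in place of 3 at 24 h (*Myog* lost) and 7 in place of 6 from 48 to 120 h without dox (*Myf6* added).

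With the replicate number as a block, dox at 0 h gave 2 and the myoblast-enriched fraction 3 (*Myf5* and *Mef2a* added, with 4051 genes called in place of 619). The fractions without dox gave 1 (*Mef2c*, adjusted p 0.00326, range over 12 alternatives 0.00326 to 0.365, with 676 genes called in place of 83). The uninduced lines gave 1 and the difference between the adhesion lines 4 (*Mef2a* and *Myod1* added, with 2250 genes called in place of 1548). The numbers paired by the check in C2C12 iMcam cells with dox (correlations 0.134 to 0.309), where the block left the count at 6. Dox in the myoblast-enriched fraction had only 2 pairs, too few for the check, and both were above 0.1 (0.217 and 0.348).

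Leaving out 1 library at a time, the count ranged from 1 to 2 for dox at 0 h, from 2 to 4 at 24 h, from 0 to 2 in the myoblast-enriched fraction, from 4 to 6 in C2C12 iMcam cells and from 1 to 2 for the difference between the adhesion lines.

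Depth limits *Myf6* in most groups, *Myog* at 0 h and *Mef2c* at 0 and 24 h, where a few counts carry each ratio. With 3 libraries a group, or 2, a single library can decide a call, and the widely spread libraries of the myotube-enriched fraction leave moderate changes undetected. The transcript tables carry no measure of how surely reads were divided between transcripts, which touches the exon shares.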
